A study of Mus musculus with 62 samples.

Results

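CD11b+ cells of the brain, called microglia in the title of the study, were compared between 6 and 12 months of age in mice that carry the APPPS1 transgenes and lack Nlrp3 (the group APPPS1_NLRP3). The comparison uses 9 of the 62 RNA-seq libraries: 5 at 6 months (6m) and 4 at 12 months (12m). They were chosen by genotype and age in the library titles, leaving out the 12-month libraries tagged Mxo4, and only autosomal genes were analysed. For side-by-side values, the same age step was taken in mice that lack Nlrp3 without the transgenes (NLRP3, 4 libraries at 6m and 4 at 12m) and in mice with the transgenes and intact Nlrp3 (APPPS1, 4 libraries at 6m and 5 at 12m). All 9 libraries therefore share the transgenes and the loss of Nlrp3, and they differ in age. APPPS1 mice are a model of amyloid deposition. In the line usually called by that name, the transgenes are driven by Thy1 promoter elements in neurons, and the labels used here do not name the promoter. Nothing in the labels ties a library to an animal, so the p-values rest on differences among libraries that may be technical replicates.

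Nlrp3 encodes the sensor of an inflammasome, a cytosolic complex that activates caspase-1, which in turn cleaves the precursors of the cytokines IL-1β and IL-18. Microglia that touch amyloid plaques are known to lower some homeostatic genes and to raise a disease-associated programme of lysosomal, lipid-handling and phagocytic genes, among them Cst7, Apoe, Spp1 and Gpnmb. Plaques in this model are known to grow in number and size with age; amyloid was not measured in these libraries. CD11b sorts can also carry RNA of endothelial, choroid plexus and neuronal origin, and markers of these cells are given beside the genes that move with them.

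Total counts of the 9 libraries ranged from 11579029 to 25282933. The Nlrp3 gene (chr11:59541568-59566956, GRCm38) lay between 0.0597 and 2.27 CPM (read counts scaled to a common library size) in the 9 libraries, against 91.4 to 126 CPM in the APPPS1_6m libraries. Microglial markers were abundant: P2ry12, a purinergic receptor, lay between 4123 and 6068 CPM and Tmem119 between 1543 and 2151. Sex, absent from the labels, was inferred from Xist and Y-linked genes. All 4 libraries at 12m were male, as were 3 of the 5 at 6m, while 6m replicates 25 and 31 were female, so age and sex are partly confounded here. The second number in the titles, whose meaning the labels do not give, was 1 in 2 libraries and 2 in 3 at 6m and took each value in 2 libraries at 12m, and a term for it was in the fit. The counts of each pair of libraries of one group differed by more than counting error (chi-square per degree of freedom from 20.6 to 77.5 over 16 pairs), so no pair was merged as 1 library deposited again; separately prepared technical replicates would also differ by more than this. The 6m replicates 25 and 29 stood apart: their 10 endothelial markers summed to 534 and 627 CPM, against 219 to 246 in the other 6m libraries and 108 to 211 at 12m, and their choroid plexus and ependyma markers to 7672 and 8824 CPM, against 589 to 2196 and 340 to 1509.

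With edgeR's quasi-likelihood test, 222 of 19215 autosomal genes passed an adjusted p of 0.05 (1.16%), of which 32 rose (0.167%) and 190 fell (0.989%), and 2117 had an unadjusted p under 0.05 (11%). The count rests on single libraries. It was 6 without 6m replicate 29, 81 without 6m replicate 25, 344 without 6m replicate 31, 14 without 12m replicate 44, 10 without 12m replicate 43, 139 without 12m replicate 49 and 0 without 6m replicates 25 and 29 together (1434 with an unadjusted p under 0.05). Fitted on the 9 libraries alone, without the other groups to estimate the spread, edgeR called 0 genes (1463 with an unadjusted p under 0.05) and DESeq2 on all 62 libraries called 278. All 222 genes kept their sign without replicates 25 and 29, and so did the 208 of them that were tested in the 9 libraries alone. Those fits reuse the libraries by which the genes were picked, so a kept sign, here or below, is not separate evidence. Igf2bp2, Mfsd2a, Per2 and Ramp2 (the last of these named after its values were seen) were the 4 genes that passed in each of the 9 fits that left out 1 library. Restricting the compared groups to male libraries left 120 calls, of which 89 were among the 222, and a term for sex gave 254, of which 203 were. A further term for the first number in the titles, whose meaning the labels do not give either, left 112 calls, of which 110 were among the 222.

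Spp1, Atp6v0d2 and Hpse were among the genes that rose. Spp1 (chr5:104435118-104441050), which encodes the secreted phosphoprotein osteopontin, had 71.4, 118, 147, 173 and 227 CPM in the 6m libraries. At 12m it had 437, 495, 613 and 735 CPM. Every 12m library lay above every 6m library. Spp1 rose by 1.95 ± 0.49 on the log2 scale (± SE throughout, edgeR, adjusted p = 0.0308), and the log2 rise was 2.16 without 6m replicates 25 and 29, where its adjusted p was 0.239. Atp6v0d2 (chr4:19876841-19922605) encodes a subunit of the vacuolar proton pump that acidifies lysosomes. It had 0.899, 1.49, 1.61, 2.01 and 3.82 CPM at 6m. At 12m it had 8.55, 14.6, 15.2 and 21.8 CPM, and the groups did not overlap. Atp6v0d2 rose by 2.97 ± 0.66 (edgeR, adjusted p = 0.0128; log2 2.90 and 0.239 without both 6m libraries). Hpse (chr5:100679484-100719716) encodes heparanase, which cuts heparan sulfate chains. It had 6.75, 14, 16, 21.9 and 32.9 CPM at 6m and 40.6, 49.5, 73.6 and 76.4 at 12m, again with no overlap. Hpse rose by 1.73 ± 0.44 (edgeR, adjusted p = 0.0315), and without the 2 libraries its log2 difference was 2.01 at an adjusted p of 0.194. With male libraries alone, the log2 differences of Spp1, Atp6v0d2 and Hpse were 2.35, 3.31 and 2.09 at adjusted p-values of 0.0457, 0.0284 and 0.0564.

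**Figure D1:**
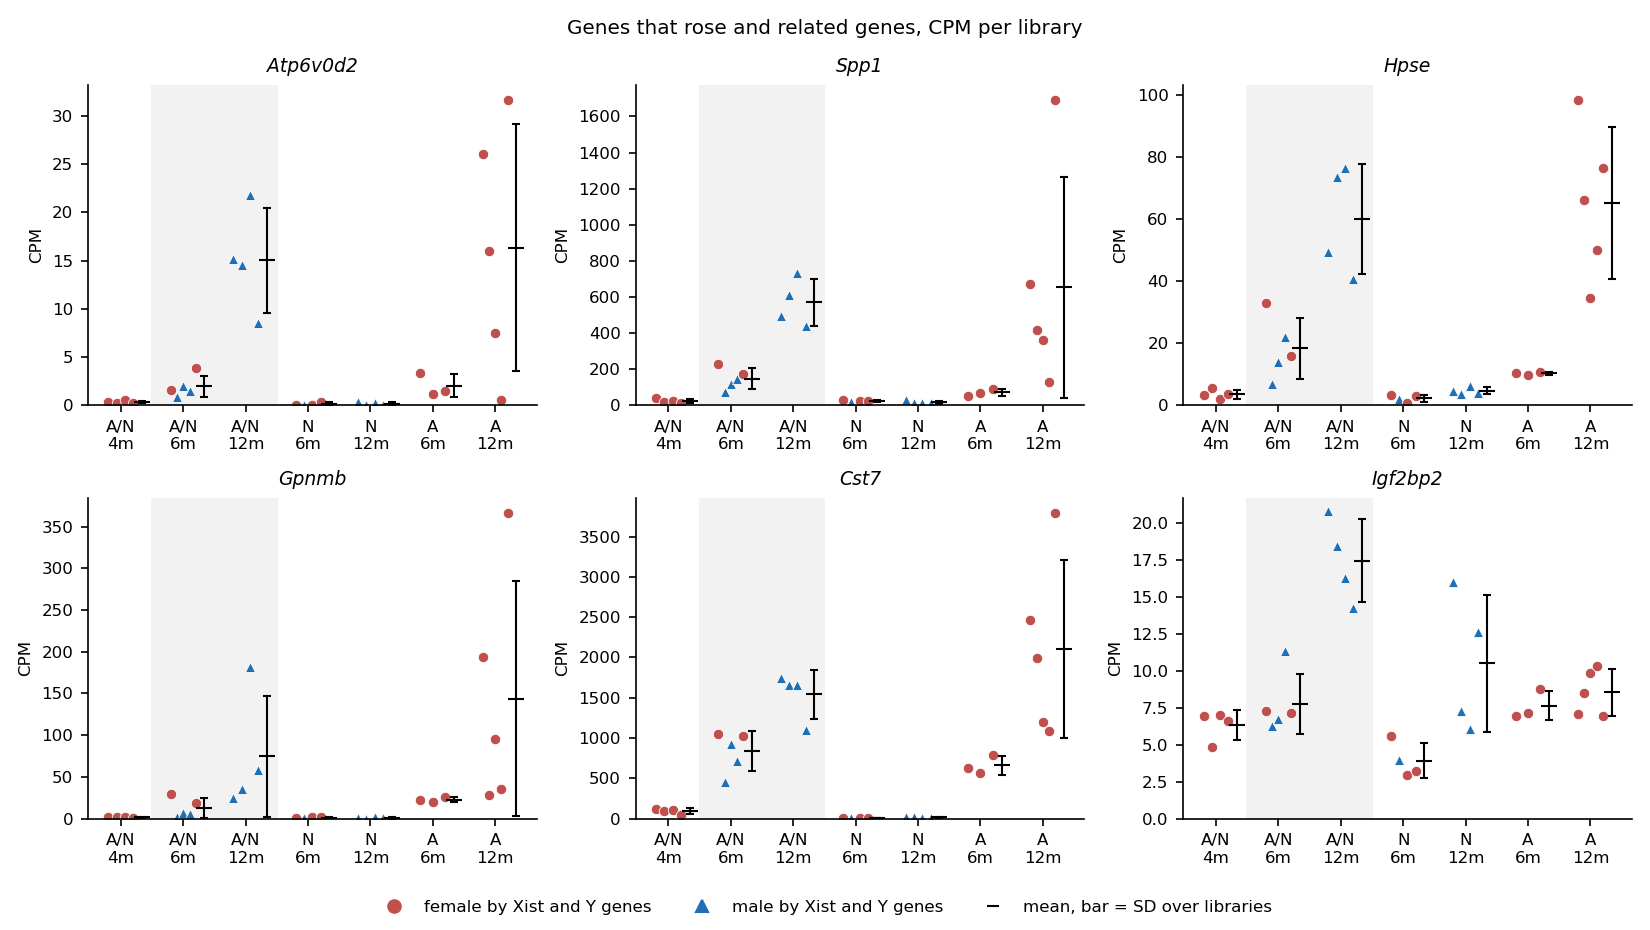
CPM per library of Atp6v0d2, Spp1, Hpse, Gpnmb, Cst7 and Igf2bp2 in APPPS1_NLRP3 (A/N; 4m, and shaded 6m and 12m), NLRP3 (N) and APPPS1 (A); triangles are male and circles female libraries, and black bars are the mean and SD over libraries. In the shaded groups the 12m libraries of each gene but Gpnmb lie above all 6m libraries, for Spp1 437 to 735 against 71.4 to 227 CPM.

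Of the 26 members of the disease-associated list, 1 rose (Spp1) and none fell. The median log2 difference was 0.48, against −0.009 over all genes, and 26 of 26 differences were positive. In the list, 8 had an unadjusted p under 0.05 upward (3.72% of all genes had), and 7 had every 12m library above every 6m library (1.19% of all genes had). Gpnmb, a transmembrane glycoprotein of lysosomes and phagosomes, had 1.54, 4.93, 6.59, 18.7 and 29.8 CPM at 6m and 24.2, 35.5, 58.1 and 182 at 12m. The groups overlapped in 1 library at each age, and the log2 difference of 2.54 ± 0.71 missed the threshold (edgeR, adjusted p = 0.061). It passed with a term for sex (log2 3.49, adjusted p = 0.00948) and with male libraries alone (3.73, 0.0336). Cst7 (chr2:150570415-150578944), a protease inhibitor that is a standard marker of the programme, had 458, 719, 920, 1030 and 1051 CPM at 6m and 1096, 1652, 1663 and 1747 at 12m. Its groups did not overlap, and its difference of 0.89 ± 0.48 did not pass (adjusted p = 0.513). Apoe, the main lipid carrier protein of the brain, ranged from 3412 to 5692 CPM at 6m and from 4687 to 7928 at 12m (log2 0.55 ± 0.32, adjusted p = 0.559). The differences of Fabp5, a fatty acid chaperone, Lpl, a lipase, and Itgax, an integrin chain, were 1.12, 1.01 and 0.98, with adjusted p-values of 0.202, 0.226 and 0.254 in edgeR's test; Lpl and Itgax were picked after their values were seen.

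The other groups of the genotype are given as levels, without a test. Spp1 averaged 24.1 CPM in the 4 libraries at 4m and 1082 in the 3 Mxo4-tagged libraries at 12m, and Cst7 averaged 91.4 and 1586. Atp6v0d2 averaged 0.352 and 25.8 CPM, and Gpnmb 1.41 and 226. The 4m libraries were all female, and 2 of the 3 Mxo4-tagged libraries were.

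Other genes that rose encode proteins of mixed function. Igf2bp2 (chr16:22059009-22163299), an RNA-binding protein of the insulin-like growth factor 2 transcript, had 6.30, 6.72, 7.17, 7.29 and 11.4 CPM at 6m and 14.3, 16.3, 18.5 and 20.8 at 12m. The groups did not overlap. Igf2bp2 rose by 1.17 ± 0.21 (edgeR, adjusted p = 0.00403), and its adjusted p stayed at 0.0486 or below in each fit that left out 1 library of these groups, but was 0.0963 without both 6m libraries. Cirbp, the cold-inducible RNA-binding protein, had 8.05, 9.19, 12.7, 14 and 15.6 CPM at 6m and 16.3, 20.1, 29.3 and 37.1 at 12m, which do not overlap. Cirbp rose by 1.12 ± 0.23 (edgeR, adjusted p = 0.0116). Mthfd2, a mitochondrial folate enzyme, rose by 0.89 ± 0.20 from 10.4 to 15 CPM to 13.3 to 27.1 (adjusted p = 0.0122), with the lowest 12m library inside the 6m range. Zkscan2, a zinc finger protein, rose by 1.18 ± 0.25 (adjusted p = 0.0116). Gca, the calcium-binding protein grancalcin, Akap1, which anchors protein kinase A at mitochondria, and Sspn, a member of the dystrophin complex, rose by 0.88, 0.82 and 0.78 on the log2 scale in edgeR's test (adjusted p = 0.0182, 0.0178 and 0.0428). In the Sspn row the call was lost in each of the 9 fits that left out 1 library.

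Single members of other lists rose by smaller amounts. Sc5d, a late enzyme of cholesterol synthesis, rose by 0.46 ± 0.12, from 51.8 to 67.8 CPM at 6m to 76.0 to 93.9 at 12m with no overlap (edgeR, adjusted p = 0.0431). It was 1 call among 20 cholesterol synthesis genes, whose median difference was 0.22. Dhcr7 and Hsd17b7, neighbours of Sc5d in that pathway, differed by 0.51 (adjusted p = 0.0675) and 0.89 (0.0773). Ighd, an immunoglobulin heavy chain gene, rose by 0.74 ± 0.19 (adjusted p = 0.0364) and was 1 call among 5 B cell markers. The B cell markers Cd79a and Iglc2 lay at or below 0.2145 and 0.546 CPM in all 9 libraries. Cd79b lay between 10.7 and 22.3 CPM, and Ighm between 326 and 444. The summed B cell markers, most of which was Ighm, ranged from 350 to 466 CPM at 6m and from 351 to 482 at 12m. In the lysosome list, Atp6v0d2 was the 1 call of 25, the median was 0.23, and Lipa (acid lipase) and Gusb (β-glucuronidase) differed by 0.24 and 0.33 (adjusted p = 0.337 and 0.33). In the list of integrated stress and unfolded protein response genes, Mthfd2 was the 1 call of 22, the median was −0.03, and Xbp1 and Atf3 differed by −0.19 and −0.55 (adjusted p = 0.344 and 0.353).

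The circadian clock transcripts Per2, Per3 and Cry1 fell. In the clock, the activators CLOCK and BMAL1 (Arntl) drive Per and Cry genes, whose proteins repress them, and the output factors DBP and TEF act through D-boxes. The transcripts are known to vary with the hour of the day, and the labels give no hour of collection. Promoters are printed for Per3 and Cry1, 2 of the 3 genes that fell, since Per and Cry genes are textbook targets of E-box (CACGTG) and D-box (TTANGTAA) factors. The sequences run from 250 bases before to 50 after the start of the gene, 5′ to 3′ on the minus strand (RefSeq, GRCm38.p6), and capitals mark the motif.
Per3, chr4:151044616-151044915: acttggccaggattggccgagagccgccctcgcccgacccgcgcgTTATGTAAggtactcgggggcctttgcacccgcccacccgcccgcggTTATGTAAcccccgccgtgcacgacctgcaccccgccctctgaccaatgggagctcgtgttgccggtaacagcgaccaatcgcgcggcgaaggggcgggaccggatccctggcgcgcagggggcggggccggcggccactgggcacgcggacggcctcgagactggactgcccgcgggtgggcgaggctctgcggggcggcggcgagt
Cry1, chr10:85185005-85185304: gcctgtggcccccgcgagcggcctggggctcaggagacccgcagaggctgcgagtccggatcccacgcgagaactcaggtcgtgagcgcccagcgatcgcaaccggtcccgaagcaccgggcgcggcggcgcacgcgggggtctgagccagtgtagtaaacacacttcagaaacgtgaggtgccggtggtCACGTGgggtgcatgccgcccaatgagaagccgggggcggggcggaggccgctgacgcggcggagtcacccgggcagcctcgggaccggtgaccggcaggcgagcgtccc

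The Per3 window holds 2 D-boxes that start 205 and 158 bases before the gene start, and the Cry1 window holds 1 E-box 60 bases before it. Both strands were searched, and the 2 motifs do not overlap each other. Of 32851 promoters in the table, 7.15% hold an E-box and 2.32% a D-box. Promoters were matched for 17 of the 20 clock genes tested, with 25 promoters among them, and 5 of these genes hold an E-box and 1 a D-box. These counts are per gene, so they cannot be set directly against the shares per promoter. A match is a description of the letters and not of factor binding.

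Per2 (chromosome 1), a repressor arm gene, had 11.4, 11.5, 17, 17.3 and 18.4 CPM at 6m and 3.60, 3.85, 4.28 and 4.70 at 12m. Every 12m library lay below every 6m library. Per2 fell by 1.90 ± 0.34 on the log2 scale (edgeR, adjusted p = 0.00403), and by 1.75 without 6m replicates 25 and 29 (adjusted p = 0.0963). Per3 had 18.5, 22, 22.9, 35.3 and 41.6 CPM at 6m and 10.6, 11.2, 14.4 and 16.9 at 12m, with no overlap. The 2 highest Per3 values were those of the female 6m replicates 25 and 31. Per3 fell by 1.11 ± 0.25 (adjusted p = 0.0128 in edgeR's test), and by 0.71 with male libraries alone, where the call was lost (adjusted p = 0.218). Cry1 had 16.5, 20.5, 20.8, 24.2 and 25 CPM at 6m and 9.60, 9.91, 13 and 13.3 at 12m, with no overlap. Cry1 fell by 0.91 ± 0.21 (edgeR, adjusted p = 0.0198), and by 0.85 among male libraries (adjusted p = 0.0879). Per1 ranged from 34.5 to 63.8 CPM at 6m and from 29.7 to 47.7 at 12m (log2 −0.34, adjusted p = 0.628). Dbp and Tef differed by −0.92 and −0.56 (adjusted p = 0.0923 and 0.119), Arntl by 0.38 (0.462) and Clock by −0.09 (0.799).

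Over the list, 3 of 20 clock genes fell and none rose, 7 had an unadjusted p under 0.05 downward (7.3% of all genes had), and the median was −0.07. The same step was measured without the transgenes. In NLRP3 mice, where 3 of 4 libraries at 6m were female and all 4 at 12m male, Per2, Per3 and Cry1 fell from 6m to 12m by 1.65, 1.36 and 0.93 (adjusted p = 0.00325, 0.000692 and 0.0111 in edgeR's test). In APPPS1 mice the differences were −0.36, −0.19 and −0.20 (edgeR, adjusted p = 0.554, 0.678 and 0.603). The APPPS1 libraries whose sex could be read were all female at both ages. The difference between the age steps of APPPS1_NLRP3 and APPPS1 was −1.55 ± 0.50 for Per2 and did not pass (adjusted p = 0.102). In levels, Per2 averaged 15.1 ± 3.38 CPM (SD, n = 5) in APPPS1_NLRP3 and 24.1 ± 4.90 (n = 4) in NLRP3 at 6m, against 4.75 ± 0.575 (n = 3) in APPPS1 and 6.90 ± 2.44 (n = 5) in wild type. At 4m it averaged 6.09 CPM in APPPS1_NLRP3.

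**Figure D2:**
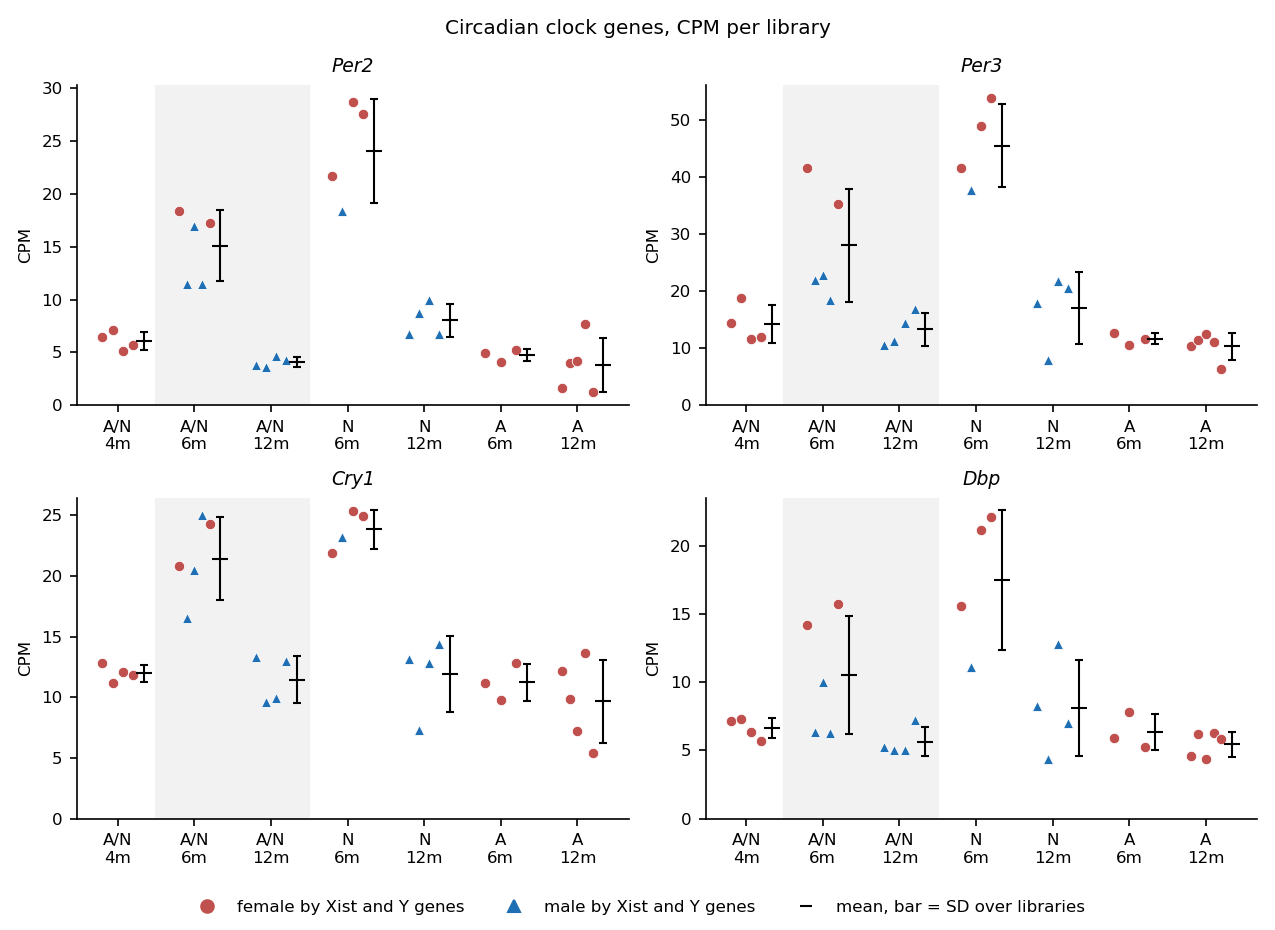
CPM per library of Per2, Per3, Cry1 and Dbp in APPPS1_NLRP3 (A/N; 4m, and shaded 6m and 12m), NLRP3 (N) and APPPS1 (A); triangles are male and circles female libraries, black bars are the mean and SD. The 6m libraries of both genotypes without Nlrp3 lie above their 12m libraries for Per2 (11.4 to 18.4 against 3.60 to 4.70 CPM in A/N), while the APPPS1 groups lie between 1.30 and 7.67 CPM.

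Genes of blood vessels and of the choroid plexus were among those that fell. In bulk RNA, fewer cells of a type and less RNA per cell cannot be told apart. Of the 10 endothelial markers, 6 fell and none rose, where 0.989% of all genes fell, and the median difference was −1.70. Ly6c1, a surface protein of brain endothelium, had 31.4, 46.3, 52.9, 127 and 141 CPM at 6m and 16.5, 17.8, 22.7 and 30.3 at 12m. The 2 highest values belong to 6m replicates 25 and 29, and the groups did not overlap. Ly6c1 fell by 1.89 ± 0.37 on the log2 scale (edgeR, adjusted p = 0.00655). Slco1a4, an organic anion transporter of the blood-brain barrier, and Abcb1a, the drug efflux pump P-glycoprotein, fell by 1.90 and 1.76 (edgeR, adjusted p = 0.0116 and 0.0184). Mfsd2a (chromosome 4), the lysophospholipid carrier of brain endothelium, had 4.18, 5.90, 9.06, 11.9 and 19.3 CPM at 6m and 1.21, 1.83, 1.91 and 2.37 at 12m. It fell by 2.48 ± 0.41 (edgeR, adjusted p = 0.00255) and by 1.82 without replicates 25 and 29 (adjusted p = 0.0963). Without those libraries none of the 10 endothelial markers passed, and their median difference was −0.93 with 10 of 10 negative. The libraries left out were picked for their high endothelial sums, so a smaller fall of these markers followed from the choice. That fit called no gene of any kind, so the lost calls are not particular to these markers.

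The largest falls by rule included Sox18, Fmo2 and Lepr. Sox18, an endothelial transcription factor, had 1.91, 2.01, 4.69, 8.26 and 13.7 CPM at 6m and 0.182, 0.316, 0.939 and 1.67 at 12m, and fell by 2.86 ± 0.54 (edgeR, adjusted p = 0.00473). Fmo2, a flavin-containing monooxygenase, had 1.17, 1.61, 4.36, 8.78 and 9.22 CPM at 6m and 0.0447, 0.0910, 0.695 and 0.744 at 12m, and fell by 3.63 ± 0.67 (adjusted p = 0.00403). In both genes the 12m libraries lay below all 6m libraries. Tie1, a receptor kinase of endothelium, Zfp366, a zinc finger protein, Ushbp1 and Cachd1 fell by 2.13 to 2.27 (edgeR, adjusted p from 0.0116 to 0.0364), and Lepr, the leptin receptor, by 2.62 (adjusted p = 0.0216). Stk39, a kinase that controls ion cotransporters, fell by 2.19 (adjusted p = 0.0173), and its value in 6m replicate 29 was 84.2 CPM against 14.5 to 32.3 in the other 6m libraries. Without 6m replicates 25 and 29, Lepr, Cachd1, Tie1 and Stk39 had log2 differences of −0.75, −1.09, −1.21 and −1.40. Those of Zfp366, Ushbp1, Sox18 and Fmo2 were then −1.61, −1.645, −1.75 and −2.55. None of these genes passed in that fit (edgeR, adjusted p from 0.209 to 0.854). Of 10 choroid plexus and ependyma markers, 2 fell, Kcnj13, a potassium channel, by 2.26 and Foxj1, the master factor of motile cilia, by 3.33 (edgeR, adjusted p = 0.0447 and 0.0128). Both overlapped between the ages, and the median of the list was −1.92. Without 6m replicates 25 and 29 none passed and the median was −0.29. These libraries also held the highest choroid plexus sums, and the fit without them called no gene of any kind. Of 10 pericyte and fibroblast markers, Rgs5 and Pdgfrb fell, by 1.39 and 1.59 (adjusted p = 0.0269 and 0.0436); their summed level was 57.5 to 112 CPM at 6m and 13.8 to 53.9 at 12m.

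Some members of other lists that fell varied with the endothelial markers. Over 52 libraries of the other groups, each centred on its group, Epas1, a hypoxia-inducible factor subunit, and Ndrg1 had correlations with the summed endothelial markers of 0.82 and 0.73, and Mal, in the oligodendrocyte list, of 0.74 (a description, on log2 CPM, over libraries that share these markers). Epas1 and Ndrg1 fell by 1.52 and 1.57 (edgeR, adjusted p = 0.0128 and 0.0123) and were the 2 calls among 20 oxygen response genes, whose median was 0.10. Mal fell by 1.59 (adjusted p = 0.0116) and was the 1 call among 10 oligodendrocyte lineage genes, whose median was 0.18. Hif1a, the better known oxygen-regulated subunit, ranged from 493 to 669 CPM at 6m and from 656 to 913 at 12m (log2 0.47 ± 0.19, adjusted p = 0.305). Of the 190 genes that fell, 55 (28.9%) had a correlation of at least 0.7 with the endothelial sum, against 0.453% of all genes, and of the 32 that rose, none had. Ly6c1, Slco1a4, Abcb1a, Tek, Pecam1 and Cdh5 are among the 55 and are themselves part of the sum. The part of these cells in the falls was not tested beyond these values. In NLRP3, where all 10 endothelial markers fell, they summed to 543 to 1160 CPM at 6m and 102 to 234 at 12m. In APPPS1, where none of the 10 passed in edgeR's test and 1 had an unadjusted p under 0.05, they summed to 298 to 630 and 291 to 445, which overlap.

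**Figure D3:**
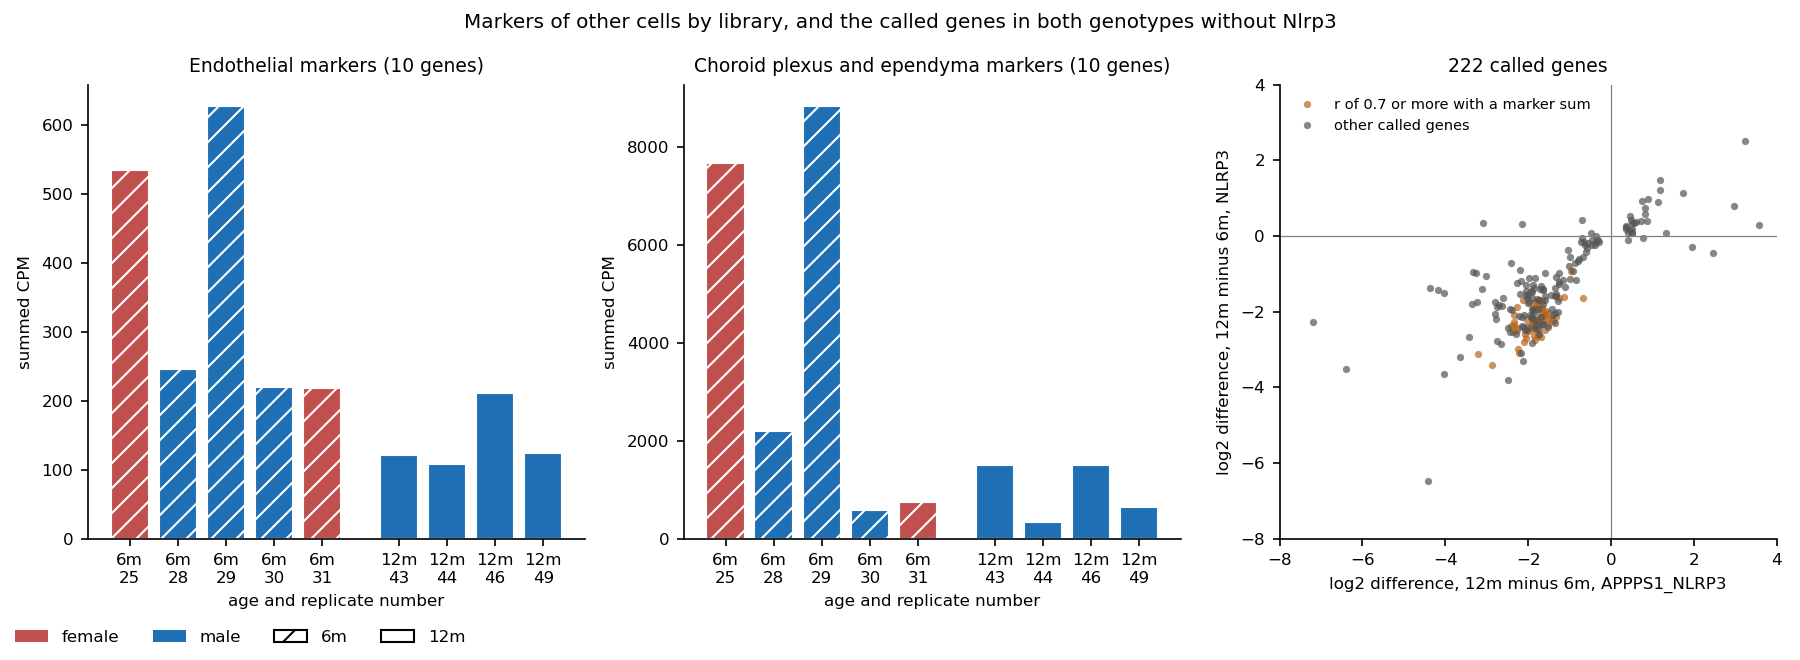
Summed CPM of 10 endothelial markers and of 10 choroid plexus and ependyma markers in each APPPS1_NLRP3 library (hatched 6m, plain 12m; blue male, red female), and the log2 age difference of the 222 called genes in APPPS1_NLRP3 (x) and NLRP3 (y), with genes whose correlation with a marker sum is at least 0.7 in brown. A marker is part of its own sum. A called gene not named here, with a log2 difference of 4.63 in APPPS1_NLRP3, lies beyond the axis and is not drawn. The 6m replicates 25 and 29 hold the highest sums (534 and 627 CPM for endothelium), and most of the called genes lie in the lower left quadrant, 186 of the 190 that fell being negative in both.

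The 190 genes that fell can be set beside the same step in mice without the transgenes, whose libraries are not shared. Their median difference was −1.83 in APPPS1_NLRP3, −1.89 in NLRP3 and −0.65 in APPPS1. Sex shifted with age from 2 female and 3 male libraries to 4 male in APPPS1_NLRP3, and from 3 female and 1 male to 4 male in NLRP3. The APPPS1 libraries whose sex could be read were all female at both ages, so the contrast with APPPS1 is partly confounded with sex. In NLRP3, 186 of the 190 were negative and 131 fell with an adjusted p under 0.05 (of all genes, 4.26% were called there and 2.48% fell). In APPPS1, 180 were negative and 20 fell (7.01% of all genes). Of the 32 genes that rose, 27 were positive in NLRP3 and 7 rose there (1.78% of all genes), and 27 were positive in APPPS1. Igf2bp2, Cirbp, Mthfd2, Zkscan2, Akap1, Naaa (a lysosomal amidase) and Ighd rose in NLRP3 by 1.48, 0.89, 0.98, 1.21, 0.74, 0.52 and 0.93, and Naaa was named after its values were seen. Spp1 differed there by −0.29 (adjusted p = 0.875) and by 3.21 in APPPS1 (adjusted p = 0.00129). Atp6v0d2 differed by 0.78 in NLRP3 (adjusted p = 0.853) and by 2.92 in APPPS1 (0.00975). For neither gene did the difference between the age steps of APPPS1_NLRP3 and NLRP3 pass in edgeR's test. The difference from the APPPS1 step did not pass for them either.

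Other genes that fell are not vascular markers, and of those given here Slc39a10, Gimap6 and Lfng were named after their values were seen. Entpd1, the ectonucleotidase CD39 of microglia, had 633, 880, 913, 949 and 1054 CPM at 6m and 570, 620, 656 and 708 at 12m. Only 6m replicate 25 lay within the 12m range. Entpd1 fell by 0.45 ± 0.12 (edgeR, adjusted p = 0.0349), with a correlation of 0.06 with the endothelial sum, and was the 1 call among 25 homeostatic genes, whose median was −0.05. In that list Tmem119 ranged from 1872 to 2151 CPM at 6m and from 1543 to 1880 at 12m (log2 −0.29, adjusted p = 0.521), Cx3cr1, the fractalkine receptor, from 1444 to 3403 and from 3374 to 4659 (0.72, adjusted p = 0.151), and Bin1 differed by −0.20 (0.451). Slc39a10, a zinc importer, had 97.9 to 122 CPM at 6m and 60.6 to 78.2 at 12m with no overlap and fell by 0.63 ± 0.14 (edgeR, adjusted p = 0.0122), with a correlation of 0.53 with the endothelial sum. Gimap6, an immune GTPase, fell by 0.71 (edgeR, adjusted p = 0.0173), with no overlap between the ages. Lfng, a glycosyltransferase that modifies Notch receptors, had 35.1 to 60.6 CPM at 6m and 23.9 to 37.1 at 12m and fell by 0.69 ± 0.15 (adjusted p = 0.0137). Sigirr, a negative regulator of IL-1 family signalling, lay between 0.519 and 3.38 CPM at 6m and between 0.316 and 0.837 at 12m and fell by 1.90 ± 0.45 (adjusted p = 0.0198). The correlation of Sigirr with the endothelial sum was 0.40. Its call was lost with male libraries alone (log2 −1.59, edgeR, adjusted p = 0.15) and without 6m replicates 25 and 29 (−1.31, 0.482). Sigirr also fell in NLRP3, by 1.92, and was the 1 call among 22 inflammasome and IL-1 family genes.

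None of 28 type I interferon response genes, 17 MHC class I genes, 10 MHC class II genes, 25 NF-kB cytokine and feedback genes, 19 complement genes or 26 ribosomal protein genes passed in either direction with edgeR's test at an adjusted p of 0.05; at an unadjusted p under 0.05 they held 1, 3, 4, 2, 4 and 0 genes, where 11% of all genes did. Their medians were 0.22, 0.09, 0.18, −0.25, 0.12 and 0.18, against −0.009 over all genes. The MHC class II list had 4 of 10 genes with every 12m library above every 6m library, as 1.19% of all genes had, with summed levels of 865 to 1182 CPM at 6m and 1228 to 2553 at 12m. Of the NF-kB list, 24 of 25 differences were negative, and of the immediate-early and dissociation response genes, which mark handling of cells, 24 of 25 were (median −0.39, 7 with an unadjusted p under 0.05 downward). The immediate-early genes summed to 10860 to 28560 CPM at 6m, highest in replicate 29, and 11220 to 16580 at 12m. Without 6m replicates 25 and 29 their median was −0.05, while that of the NF-kB list was −0.27. App and Prnp, the prion protein gene, differed by −0.03 and −0.57 (edgeR, adjusted p = 0.996 and 0.223), and Thy1 lay at 2.73 CPM or below in all 9 libraries.

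**Figure D4:**
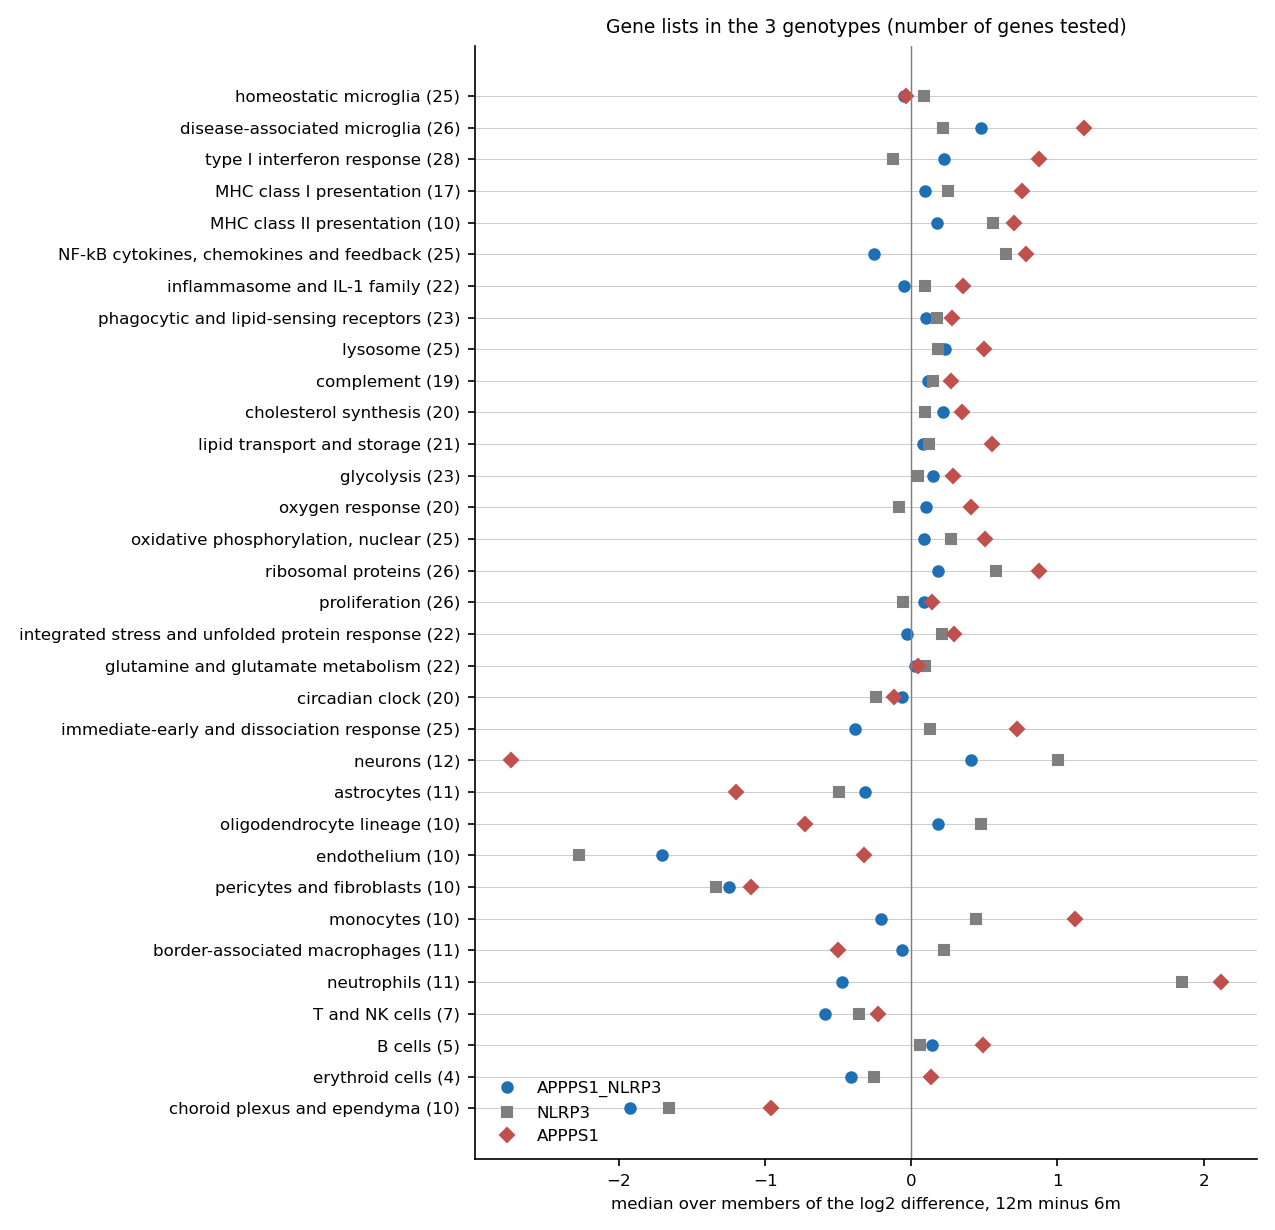
Median log2 difference from 6m to 12m over the tested members of each gene list in APPPS1_NLRP3 (blue circles), NLRP3 (grey squares) and APPPS1 (red diamonds); numbers of genes in brackets. Disease-associated genes have a median of 0.48 in APPPS1_NLRP3, 0.22 in NLRP3 and 1.18 in APPPS1, and NF-kB genes −0.25, 0.65 and 0.78.

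The age steps with and without the transgenes were compared in mice lacking Nlrp3. The difference between the steps of APPPS1_NLRP3 and NLRP3 passed for 11 genes (0.0572% of all genes), all of them lower, and 1351 genes had an unadjusted p under 0.05 (7.03%). Of the 25 NF-kB cytokine and feedback genes, 3 were among the 11. Il1b, which encodes the inflammasome substrate IL-1β, had 1082, 1244, 1281, 1349 and 1882 CPM at 6m in APPPS1_NLRP3 and 817, 1025, 1073 and 1273 at 12m, which overlap (log2 −0.38 ± 0.30, adjusted p = 0.714). In NLRP3 it had 254 ± 72.0 CPM at 6m (SD, n = 4) and 788 ± 298 at 12m (n = 4), a rise of 1.63 ± 0.32 (edgeR, adjusted p = 0.00109). Replicate 45 of NLRP3_12m held only 1394435 counts, and in edgeR's test without it 3 of the 11 differences passed. For Il1b the difference of the 2 steps was −2.02 ± 0.44 (edgeR, adjusted p = 0.0475). It did not pass with a term for sex, RLE size factors or DESeq2 (adjusted p = 0.0541, 0.0654 and 0.0593), and in NLRP3 3 of 4 libraries at 6m were female and all at 12m male. Tnf, a second proinflammatory cytokine, had 324 to 488 CPM at 6m and 292 to 365 at 12m in APPPS1_NLRP3, and 134 ± 19.9 and 373 ± 127 in NLRP3. Its steps differed by −1.78 ± 0.32 (adjusted p = 0.0142). The steps of Marcksl1, a MARCKS-like protein, Cd83, a surface protein of activated myeloid cells, and Il1a differed by −1.67, −1.56 and −1.47 (edgeR, adjusted p = 0.0276 for each). At 6m the NLRP3 libraries lay below the APPPS1_NLRP3 libraries for Il1b and Tnf, and at 12m the 2 genotypes overlapped. The immediate-early genes summed to 16470 to 22890 CPM in NLRP3_6m and 16250 to 21440 in NLRP3_12m, and their part in these differences was not tested.

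The 11 differences kept their direction in each fit that changed a setting, and many of those fits lost the calls. In the 17 fits that left out 1 library, Tnf kept its call in 10 and Il1b in 3, and with male libraries alone, which leave 1 library in NLRP3_6m, none of the 11 passed (1493 genes had an unadjusted p under 0.05). The count was 0 on the compared groups alone (882 genes at an unadjusted p under 0.05), 1 with RLE size factors, 19 with DESeq2 and 61 without 6m replicates 25 and 29. The steps share no libraries, but both enter the tested difference, so the calls of the steps are not independent evidence for it.

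**Figure D5:**
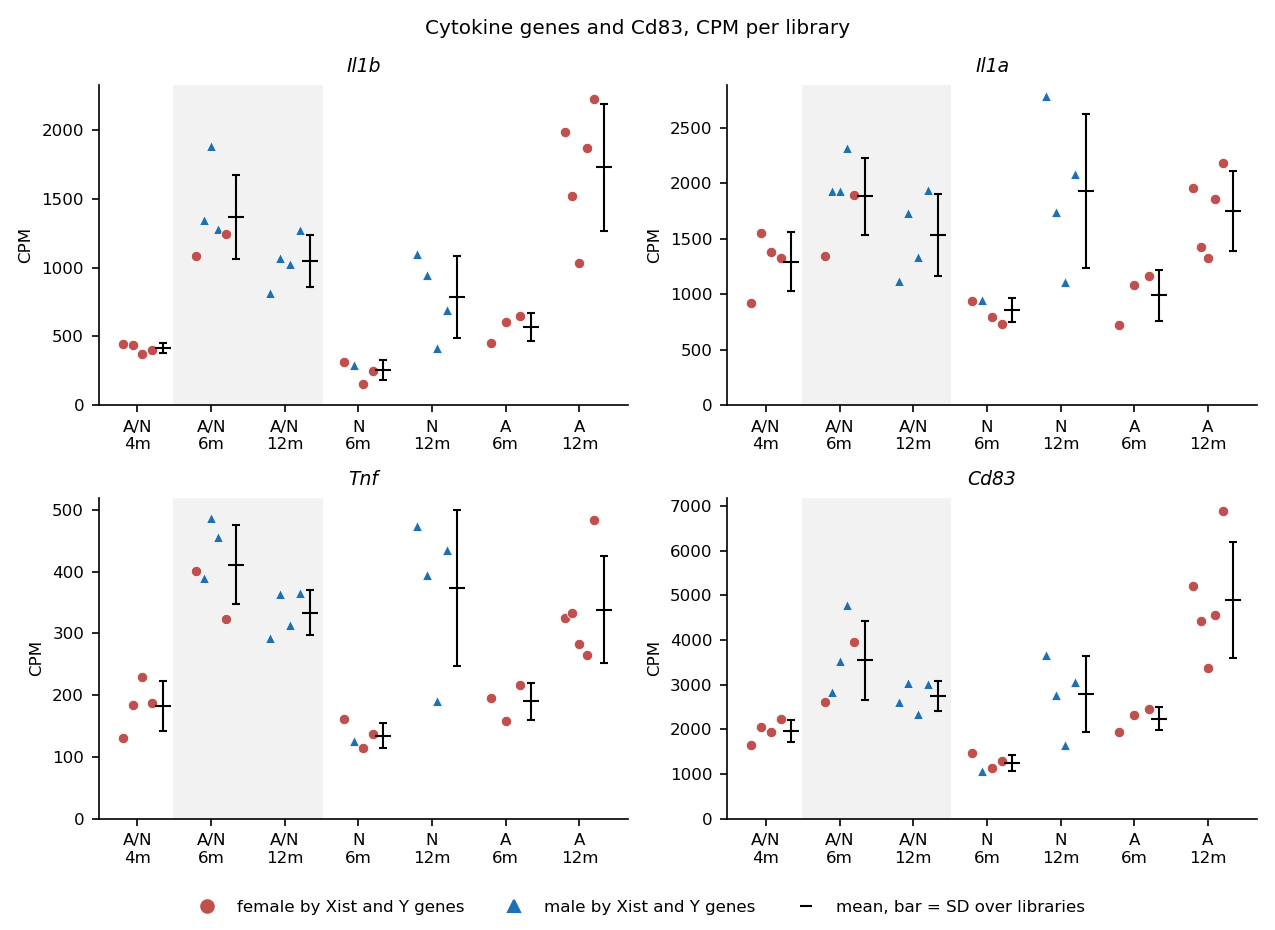
CPM per library of Il1b, Il1a, Tnf and Cd83 in APPPS1_NLRP3 (A/N; 4m, and shaded 6m and 12m), NLRP3 (N) and APPPS1 (A); triangles are male and circles female libraries, black bars are the mean and SD. Il1b lies at 817 to 1882 CPM in both shaded groups, and averages 254 and 788 CPM in NLRP3 and 571 and 1729 CPM in APPPS1 at 6m and 12m.

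Against the same step with intact Nlrp3, 140 genes differed (0.729%), of which 92 were lower and 48 higher; scaling by library size alone turned this split to 21 lower and 101 higher of 122 and moved the median of all genes from −0.02 to 0.17. The APPPS1 step itself had 1635 rises (8.51%) and 1347 falls, 15.5% of genes together with 30.4% at an unadjusted p under 0.05, and 501 rises and 3196 falls under library size alone. The 5 largest lower differences by rule were those of Ly6c2, a monocyte surface protein, Hcar2, the receptor of hydroxybutyrate and niacin, Il1b, Ptgs2 (cyclooxygenase 2) and Ccrl2, a chemokine-binding receptor. Il1b averaged 571 ± 103 CPM at 6m (SD, n = 3) and 1729 ± 464 at 12m (n = 5) in APPPS1, and the steps differed by −2.02 ± 0.45 (edgeR, adjusted p = 0.0246). Hcar2 had 138 to 260 CPM at 6m and 134 to 237 at 12m in APPPS1_NLRP3, and 84.1 ± 30.6 and 319 ± 78.8 in APPPS1, a difference of steps of −2.02 ± 0.46 (adjusted p = 0.0272). Ptgs2 and Ccrl2 differed by −1.87 and −1.82 (adjusted p = 0.0347 and 0.0162). For Ly6c2 the difference was −3.96 (adjusted p = 0.0173), and the APPPS1_12m values ranged from 0.868 to 40.4 CPM. All 5 stayed negative under each scaling tried. Ptgs2 lost its call under RLE size factors (adjusted p = 0.0504), library size alone (0.0528) and the sex term (0.0521), and all 5 lost it without 6m replicates 25 and 29 (adjusted p from 0.0531 to 0.0972). The count was then 30, and on the compared groups alone it was 1.

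The 5 largest higher differences among genes that met the rule of at least 5 CPM, with no library holding over 60% of a group's sum, are given here. Rian, a noncoding RNA of the brain, Nrip3, Ank3, the axonal ankyrin-G, Camk2n1, an inhibitor of CaM kinase II, and Psd3 differed by 5.0, 4.34, 4.10, 3.82 and 3.62 (edgeR, adjusted p from 0.0223 to 0.0369). Without 6m replicates 25 and 29 all 5 kept their sign and lost their call (adjusted p from 0.0778 to 0.113). None of 12 neuronal markers passed in edgeR's test of this difference, and 12 had an unadjusted p under 0.05, all higher (median 3.04; 17.4% of all genes in either direction). They summed to 40.7 to 447 CPM in APPPS1_NLRP3 at 6m and 81.2 to 809 at 12m, and to 202 to 617 and 20.6 to 141 in APPPS1. Their part in these differences was not tested. Camk2n1 had 5.87, 7.51, 9.97, 12.6 and 43.4 CPM at 6m and 7.44, 12.2, 58.2 and 67.9 at 12m in APPPS1_NLRP3, and fell in APPPS1 from 46.2 ± 13.6 to 7.35 ± 4.74 CPM (log2 −2.67, adjusted p = 0.00418). Cirbp was also among the higher differences (1.58 ± 0.35, edgeR, adjusted p = 0.0223). The disease-associated genes had a median difference of steps of −0.81 against APPPS1 and 0.23 against NLRP3. None of the 26 passed in either of these tests. Against APPPS1, 13 had an unadjusted p under 0.05 (17.4% of all genes had), all lower, and against NLRP3, 1 had (7.03%). The shift against APPPS1 was not particular to this list. Ribosomal, MHC class I and interferon genes had medians of −0.70, −0.67 and −0.60 there, and homeostatic genes −0.04. All APPPS1_12m libraries were female and all APPPS1_NLRP3_12m libraries male, so at that age sex and Nlrp3 cannot be told apart within these groups; with a term for sex, fitted over all groups, 90 genes differed, 72 lower and 18 higher.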

How the data were processed

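The authors deposited raw read counts per gene for all 62 libraries, made from paired-end SMART-Seq v4 RNA-seq reads with Trimmomatic, TopHat and HTSeq on mm10, per the submitters' processing notes (versions and strand setting not given in the sources used here). Without molecular identifiers, PCR copies count as reads. CPM, the counts scaled to a common library size, were computed here with edgeR 4.0.16 in R 4.3.3, with TMM scaling. One quasi-likelihood fit held all libraries, with a term for group and for the second title number, after edgeR's filter (count of at least 10, total of at least 15). P-values were two-sided and adjusted by Benjamini-Hochberg over 19215 autosomal genes, at 0.05. SE is the log2 difference over the square root of F. The 1 library under 100000 counts, in APPPS1_6m, stayed in the fit and out of group means. Positions are from GENCODE M21. The fit was tested on simulated counts.

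Named genes were a fixed set, up to 10 largest rises and falls of at least 5 CPM in which no library held over 60% of the group's sum, the 3 smallest adjusted p-values of each list with a call, and up to 5 per direction for each difference of age steps. Members, lists and this rule were chosen with earlier results of these data known. DESeq2 1.42.0 and the other alternatives are given at the end.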

Additional observations from a re-analysis of the deposited data

Results flagged for a closer look

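Each gene named by rule and each marker sum of other cells was examined within the 5 libraries at 6m and the 4 at 12m. Of these 178 tests, 15 flagged a library far from the others. The nominal rate of about 1 in 20 supposes independent tests on normal values. These tests share the same 9 libraries, so their share of flags cannot be set against that rate. At 12m, replicate 49, the library with the fewest counts of the 9, was highest for Nlrp3 (2.27 CPM, next 0.758) and lowest for Cst7 (1096 CPM, next 1652) and Gusb (606.0 CPM, next 790.9). Replicate 46 was highest for App (347 CPM, next 281), Abcb1a (9.53, next 4.99), Pdgfrb (4.56, next 1.07) and the summed endothelial markers (211 CPM, next 124). At 6m, replicate 29 was highest for Stk39 (84.2 CPM, next 32.3) and P4ha2 (5.22, next 2.06). Replicate 25 was lowest for Bin1 (397 CPM, next 503) and Mag (15.7, next 19.8). Replicate 28 was highest for Camk2n1 (43.4 CPM, next 12.6) and lowest for Cd79a (0.0643, next 0.179). Replicate 30 was highest for Igf2bp2 (11.4 CPM, next 7.29), and replicate 31 for the summed B cell markers (466 CPM, next 380).

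The age step of APPPS1_NLRP3 differed from that of NLRP3, by the test of the difference itself, for Il1b (log2 −2.02), Tnf (−1.78), Marcksl1 (−1.67), Cd83 (−1.56) and Il1a (−1.47). It differed from that of APPPS1 for Il1b (−2.02), Ly6c2 (−3.96), Hcar2 (−2.02), Ptgs2 (−1.87) and Ccrl2 (−1.82), and in the other direction for Rian (5.0), Nrip3 (4.34), Ank3 (4.10), Camk2n1 (3.82) and Psd3 (3.62). Ccrl2 kept its call in 18 of 18 fits that left out 1 library, Ly6c2 in 16 and Rian and Camk2n1 in 14.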

How the results depend on the processing

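No paired analysis was possible because no replicate number, the third number of a title, occurs in more than 1 title. The first title number recurs across groups without a stated meaning and was tried as a further term. The fit without 6m replicates 25 and 29 was chosen after seeing the data, and male libraries alone could not be fitted for APPPS1, whose libraries held none.

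The number of genes called from 6m to 12m in APPPS1_NLRP3 (222) was 0 on the compared groups alone, 0 within second title number 1, 0 without replicates 25 and 29, 112 with a further term for the first title number, 120 with male libraries alone, and 6 to 344 when 1 library was left out. It was 219 within second title number 2, 278 with DESeq2, 208 with RLE size factors, 215 with library size alone, 215 without a filter and 181 without the second title number. For NLRP3 (819) it was 355 on its own groups, 507 with the first title number, 214 and 48 within second title numbers 1 and 2, 294 with male libraries, 441 without libraries under 1500000 counts, and 370 to 856 when 1 library was left out. For APPPS1 (2982) it was 1924 with the first title number, 1 within second title number 1, and 931 to 4195 when 1 library was left out.

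For the difference from the NLRP3 step (11) it was 19 with DESeq2, 1 with RLE size factors, 0 on the compared groups alone, 4 with the first title number, 0 and 1 within second title numbers 1 and 2, 0 with male libraries, 7 without libraries under 1500000 counts, 61 without replicates 25 and 29, and 0 to 30 when 1 library was left out. For the difference from the APPPS1 step (140) it was 270 with DESeq2, 54 with RLE size factors, 1 on the compared groups alone, 67 without the second title number, 21 with the first, 0 and 783 within second title numbers 1 and 2, 90 with a term for sex, 30 without replicates 25 and 29, and 15 to 974 when 1 library was left out. The DESeq2 and RLE calls of that difference split as 167 higher and 103 lower, and 24 higher and 30 lower. In NLRP3 the split of 342 higher and 477 lower became 166 and 581 with RLE size factors and 181 and 629 with library size alone. The cause of these changes was not tested. No named gene that passed the test changed its sign in these fits; App, Hcar2, Hsd17b7 and P4ha2, whose age differences in APPPS1_NLRP3 did not pass, did in some.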
